A study of Sus scrofa with 6 samples.

Results

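The muscle acetylcholine receptor subunits and the agrin-LRP4-MUSK genes were followed in differentiating porcine satellite cells (PSCs), the stem cells of skeletal muscle, which fuse into myotubes in culture. A list of 10 genes was looked up by symbol among the pig Ensembl identifiers, and 5 of the 10 were paired with a row out of 28266 rows: CHRNA1 and CHRNE of the receptor subunits, and AGRN, LRP4 and MUSK of the pathway. CHRNB1, CHRND, CHRNG, RAPSN and DOK7 were not analysed here. The cells were isolated from the limb muscles of 3-day-old male Yorkshire pigs, transfected with negative control (NC) siRNA and moved to a differentiation medium with horse serum, and no nerve was part of the culture. The 6 libraries form 2 groups of 3, harvested at 24 h (NC24h) and 36 h (NC36h) of differentiation, and their replicates carry the numbers 4, 5 and 6. For NC36h the labels state 48 h, but the series title and the paper state 36 h, and the latter is used here. Both groups received the same NC siRNA, so the comparison is between times of differentiation. The number of animals behind the libraries was not stated, and the p-values measure the spread between libraries, which may be technical.

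The muscle acetylcholine receptor is the ligand-gated channel that opens when a motor nerve releases acetylcholine. In adult muscle it is packed under the nerve terminal. Agrin, secreted by the nerve and in a weaker form by muscle, binds LRP4, which activates the receptor tyrosine kinase MUSK, and this signal gathers receptors into clusters. Before innervation, muscle fibers make receptors along their whole length, and the fetal receptor carries a gamma subunit that an epsilon subunit replaces after birth.

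Between 16250222 and 16774534 fragments were recovered per library at NC24h and between 17873849 and 21723087 at NC36h. Pearson's r of log2(FPKM + 1) was between 0.972 and 0.994 within a group and between 0.910 and 0.962 across groups. FPKM divides the fragments of a gene by gene length and by library size. With limma on log2(FPKM + 1), 50.9% of the 14060 genes whose mean FPKM reached 1 passed an adjusted p of 0.05, with 2322 genes (16.5%) higher and 4834 (34.4%) lower at NC36h, and in 63.6% of the genes the groups did not overlap. The median change of all genes was -0.16 on this log2 scale. After median-ratio scaling the split of the genes that passed was 3365 higher and 3123 lower, so the changes of the 4 genes that could be tested are also given relative to the median of -0.16.

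Of the 5 genes, 4 had enough signal to be tested. CHRNA1, LRP4 and MUSK were higher at NC36h, none of the 4 passed as lower, and AGRN did not pass the test. At an unadjusted p of 0.05, and with limma voom on the recovered fragments, the number lower was also 0. Since 16.5% of all genes passed as higher, the count of 3 in 4 is a description of these genes and not a test of the group. In bulk RNA, a larger share of cells that express a gene and more RNA of it per cell cannot be told apart.

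CHRNA1 encodes the alpha subunit, of which the muscle receptor holds a pair and which carries most of each acetylcholine binding site. The gene (ENSSSCG00000015969) is protein-coding and lies at chr15:80673072-80692256 of Sscrofa11.1. Its level was 80.2, 69.1 and 50.2 FPKM in the NC24h libraries 4, 5 and 6, and 155.7, 154.2 and 139.6 FPKM in the NC36h libraries. All NC36h libraries lay above all NC24h libraries, and NC24h replicate 6 was the lowest of the 6. These values rest on 1156 to 1898 fragments per library at NC24h and 3520 to 4727 at NC36h. The mean rose from 66.5 ± 15.2 to 149.8 ± 8.93 FPKM (SD, n = 3), a ratio of 2.25, and the ratios of single libraries ran from 1.74 to 3.11. On the log2(FPKM + 1) scale the change was 1.18 (SE 0.16, limma adjusted p = 0.00212), or 1.34 relative to the median of all genes. Of the genes tested, 366 had a larger change. CHRNA1 was already among the more abundant transcripts at NC24h, when 7.02% of the genes above 0 had a higher mean FPKM, and this share was 2.96% at NC36h. Without NC24h replicate 6 the change was 1.0 (limma adjusted p = 0.000624).

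CHRNE encodes the epsilon subunit of the adult receptor. Its row (ENSSSCG00000017909) held next to no signal: 1, 4 and 2 fragments in the NC24h libraries and 11, 7 and 3 in the NC36h libraries. In FPKM these were 0.0398, 0.164 and 0.0816 at NC24h and 0.355, 0.215 and 0.112 at NC36h, where 1 fragment was worth between 0.0307 and 0.0410 FPKM. The groups overlapped, since NC36h replicate 6 lay below NC24h replicate 5. Summed over libraries and scaled to their totals, 7 against 21 fragments give a ratio of 2.46 with an exact 95% interval of 1.01 to 6.85, which covers counting error only. CHRNE lay under the FPKM minimum of 1 and was not tested, and when every gene was tested its limma adjusted p was 0.19. RefSeq places it at chr12:51999504-52016592 in Sscrofa11.1, types it there as a long non-coding RNA and overlaps it with MINK1, a kinase gene at 24.2 ± 5.38 FPKM at NC24h and 25.6 ± 3.32 at NC36h (SD, n = 3). Whether the counting used the strand was not given, so the few fragments cannot be assigned to CHRNE with certainty, and a difference beyond the spread between libraries was not detectable at this depth.

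**Figure D1:**
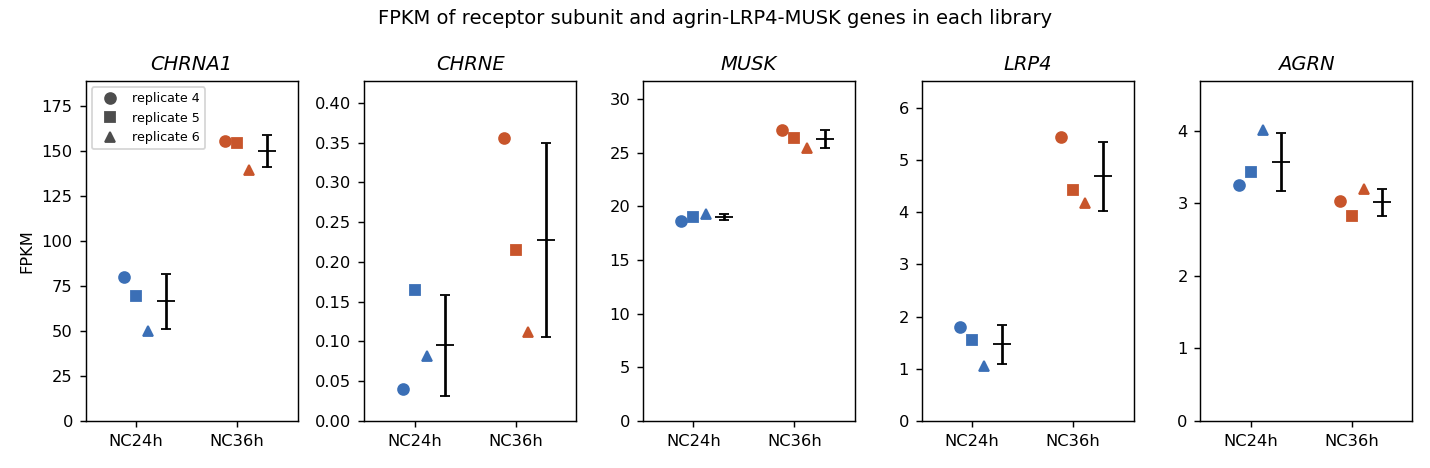
FPKM of CHRNA1, CHRNE, MUSK, LRP4 and AGRN in each library, with a linear axis from 0 for each gene; symbols mark the replicate number, and the bars beside each group give the mean and SD of 3 libraries. CHRNA1, MUSK and LRP4 show NC36h libraries above every NC24h library, AGRN shows them below, and CHRNE overlaps at 0.355 FPKM or less.

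AGRN encodes agrin, the ligand of the pathway. It lies at chr6:63366017-63398311 (ENSSSCG00000022204) and overlaps 1 RefSeq locus without a gene name. Its level was 3.26, 3.43 and 4.02 FPKM in NC24h replicates 4, 5 and 6 and 3.03, 2.83 and 3.19 FPKM in the NC36h replicates. Each NC36h library lay below each NC24h library, by a small margin, and NC24h replicate 6 was the highest. The means were 3.57 ± 0.398 and 3.02 ± 0.184 FPKM (SD, n = 3), on 404 to 485 fragments per library at NC24h and 422 to 462 at NC36h. The difference of -0.18 in log2(FPKM + 1) (SE 0.10) did not pass, with a limma adjusted p of 0.176. Relative to the median of all genes it was -0.03, and it was -0.05 after median-ratio scaling and -0.01 after quantile normalization. AGRN stood near the middle of all expressed genes at both times, with 51.9% and 52.0% of the genes above 0 at a higher mean FPKM.

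LRP4 encodes the low-density lipoprotein receptor-related protein that binds agrin on the muscle side. It is at chr2:15616137-15672876 (ENSSSCG00000013248), with no RefSeq gene overlapping it. Its level was 1.80, 1.55 and 1.06 FPKM in the NC24h libraries and 5.45, 4.42 and 4.19 FPKM in the NC36h libraries. As for CHRNA1, the groups did not overlap and NC24h replicate 6 was the lowest. The mean rose from 1.47 ± 0.377 to 4.69 ± 0.669 FPKM (SD, n = 3), a ratio of 3.19 with a range of 2.33 to 5.16 over pairs of libraries. The fragments were few at NC24h, between 107 and 187 per library, and between 464 and 697 at NC36h. The change in log2(FPKM + 1) was 1.21 (SE 0.15, limma adjusted p = 0.00166), or 1.37 relative to the median of all genes. Because the pseudocount of 1 is near the level of LRP4, that scale understates its change: with a pseudocount of 0.01 the log2 change was 1.69. LRP4 moved from a level that 63.4% of the genes above 0 exceeded to one that 45.3% exceeded.

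MUSK encodes the muscle-specific kinase that LRP4 activates. The gene spans chr1:251650151-251758538 (ENSSSCG00000005456) and overlaps 1 RefSeq locus without a gene name. It was the most even of the 5 genes within a group, at 18.7, 19.0 and 19.2 FPKM in the NC24h libraries and 27.1, 26.4 and 25.4 FPKM in the NC36h libraries. Every NC36h library was above every NC24h library, and unlike CHRNA1 and LRP4, MUSK was not low in NC24h replicate 6. The mean rose from 19.0 ± 0.291 to 26.3 ± 0.843 FPKM (SD, n = 3), a ratio of 1.38 with single ratios of 1.32 to 1.45. On the log2(FPKM + 1) scale it changed by 0.45 (SE 0.06, limma adjusted p = 0.00181), or by 0.60 relative to the median of all genes, on 797 to 1475 fragments per library. Of the genes tested, 1760 had a larger change.

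FPKM is per length, so the 5 genes were set beside each other within a library. Their order and the level of a ratio depend on the gene length used for each row, which was not checked. At NC24h the order of mean FPKM was CHRNA1, MUSK, AGRN, LRP4 and CHRNE, and at NC36h LRP4 and AGRN had changed places. No neighbours in either order overlapped over the 3 libraries of a group. The nearest pair was LRP4 and AGRN at NC36h, whose means differed by a ratio of 1.55, while CHRNA1 was 3.50 times MUSK at NC24h and 5.70 times MUSK at NC36h.

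**Figure D2:**
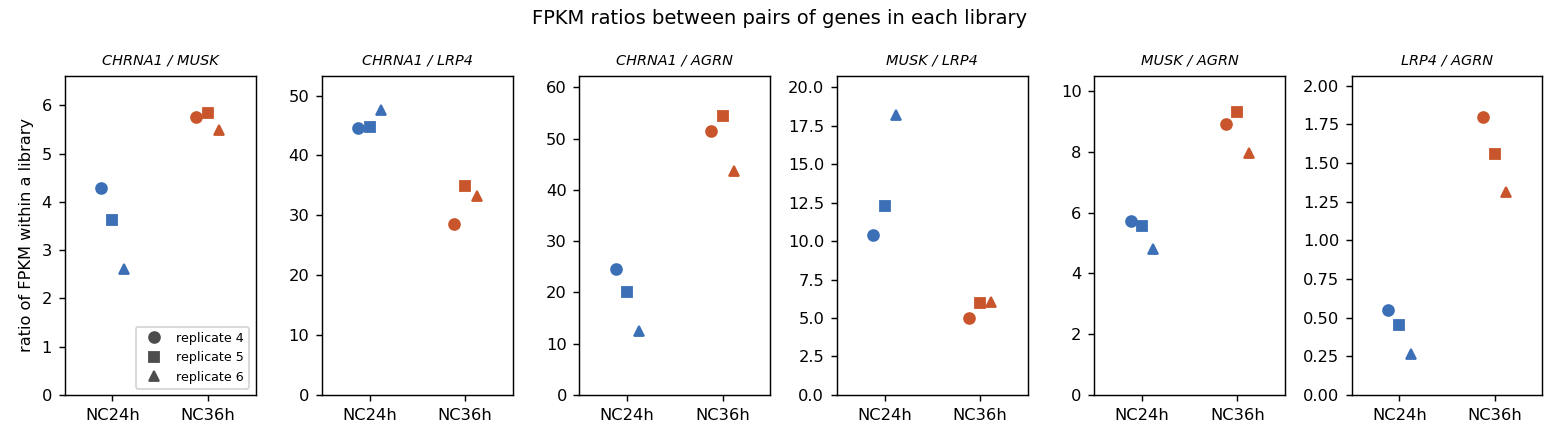
Ratio of the FPKM of one gene to that of another within each library, for the 6 pairs of CHRNA1, MUSK, LRP4 and AGRN, with a linear axis from 0 in each panel and symbols for the replicate number. The groups are apart in all 6 panels, as those over AGRN had to be from the directions of the single genes. The ratio of LRP4 to AGRN passes 1 between NC24h (0.263 to 0.552) and NC36h (1.31 to 1.80).

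Ratios of FPKM within a library do not change when all values of the library are multiplied by 1 factor, as in median-ratio scaling, but quantile normalization can change them. They were added after the values had been seen, for the 6 pairs of the 4 tested genes. The ratio of LRP4 to AGRN, the receptor over its ligand, went from a range of 0.263 to 0.552 at NC24h to 1.31 to 1.80 at NC36h, a difference of 1.94 in log2. CHRNA1 over MUSK went from 2.61 to 4.29 at NC24h to 5.5 to 5.85 at NC36h, a log2 difference of 0.73. CHRNA1 over LRP4 was the ratio that moved least, from 44.6 to 47.5 at NC24h to 28.6 to 34.9 at NC36h, a log2 difference of -0.50. In these libraries the FPKM ratio between the times was thus larger for CHRNA1 than for MUSK and smaller than for LRP4. MUSK over LRP4 fell by 1.23 on the log2 scale, from 10.4 to 18.2 to between 4.97 and 6.06. The groups did not overlap for any of the 6 ratios. For the ratios over AGRN this had to follow, since AGRN lay lower and the other genes higher in every NC36h library. The 6 ratios come from 4 genes and are not independent of each other. The exact two-sided permutation p was 0.1 for each (Benjamini-Hochberg adjusted over 6, 0.1), the smallest that 3 against 3 libraries allow, so no ratio could reach 0.05.

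The pattern of CHRNA1 over the 6 libraries was also compared with that of 5936 other genes that carried a symbol and a mean FPKM of at least 5. The measure was the root mean square difference of log2(FPKM + 1) after each gene was centred on its own mean. The nearest genes were ARMH3 at 0.04, YBX3 at 0.045 and KLHL40 at 0.057. YBX3 encodes a Y-box protein that binds DNA and RNA, and KLHL40 encodes a kelch protein of the sarcomere. These 3 genes were chosen for their likeness, so their changes of 1.17, 1.12 and 1.23 in log2(FPKM + 1) are a description. LRP4, which lay below that minimum, was at 0.096 from CHRNA1, and 11 of the 5936 genes were nearer. MUSK was at 0.424 and AGRN at 0.739, with 591 and 3279 genes nearer. The distance of LRP4 holds only for log2(FPKM + 1), whose pseudocount understates the change of LRP4. With a pseudocount of 0.01 the log2 changes were 1.693 for LRP4 and 1.197 for CHRNA1. The ratio of CHRNA1 to LRP4 without a pseudocount differed by -0.5 in log2, with the groups apart. In these libraries LRP4 thus rose more than CHRNA1, but the exact two-sided permutation p of this ratio was 0.1.

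**Figure D3:**
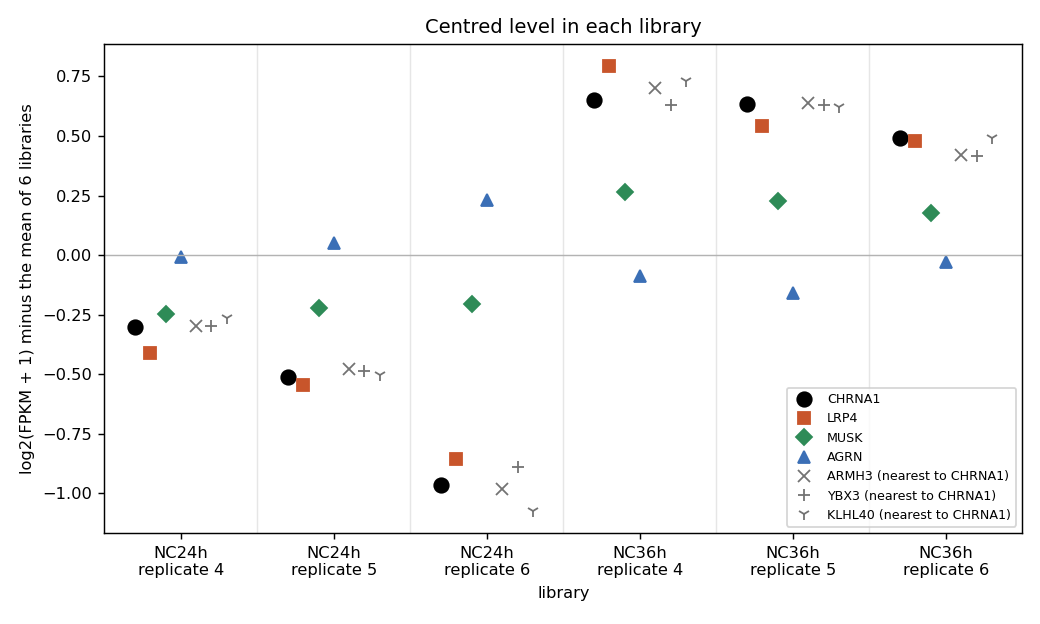
log2(FPKM + 1) minus the mean of the 6 libraries for CHRNA1, LRP4, MUSK, AGRN and the 3 genes nearest to CHRNA1, one column of points per library. CHRNA1, LRP4 and the 3 nearest genes are lowest in NC24h replicate 6 and high in all NC36h libraries. This scale understates the change of LRP4, whose FPKM is near the pseudocount. MUSK is also higher in all NC36h libraries, by smaller differences, but is not low in NC24h replicate 6. AGRN is highest in NC24h replicate 6.

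The other components of the synapse were read from 7 lists. They are described by counts and medians beside those of all genes tested, of which 16.5% were higher and 34.4% lower with a median change of -0.16.

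Of 11 genes for other acetylcholine receptor subunits, most of them of the receptors of neurons, 8 were paired with a row. CHRNA5 and CHRNA3 were high enough to test. CHRNA5, an accessory subunit, was at 17.2, 18.7 and 18.9 FPKM in the NC24h libraries and 5.59, 4.57 and 6.42 FPKM in the NC36h libraries. The groups were far apart, in the opposite direction to CHRNA1, with a change of -1.57 in log2(FPKM + 1) (SE 0.12, limma adjusted p = 0.000664). CHRNA3, a ligand-binding subunit, went from 3.92, 3.89 and 3.74 to 3.29, 2.85 and 2.89 FPKM, a change of -0.28 (limma adjusted p = 0.0416). This call was lost in 8 of 14 alternatives, after median-ratio scaling among them (adjusted p = 0.245), and also without NC24h replicate 4 or 5 or NC36h replicate 5 or 6 (adjusted p between 0.0963 and 0.141), which leaves 1 gene called. CHRNA6 was listed at 0 in every library. The number of these subunits called higher was 0 with limma, 0 at an unadjusted p of 0.05 and 0 with voom.

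Among the signalling partners of MUSK, 15 of 21 genes were paired with a row and all 15 were tested. Of these, 2 were higher, 7 were lower and 6 did not pass. Their median change was -0.26. DVL1, a Dishevelled protein that binds MUSK, rose from 87.8 ± 5.02 to 160.0 ± 21.3 FPKM (SD, n = 3), a log2 change of 0.85 (limma adjusted p = 0.00155). APC, which links receptors to microtubules, rose from 36.3 ± 1.85 to 47.8 ± 1.17 FPKM, a change of 0.39. In the other direction, PTPN11, the phosphatase SHP2, fell from 108.4 ± 3.27 to 63.1 ± 2.71 FPKM, a change of -0.77 (limma adjusted p = 0.000692). MAGI1, a scaffold protein, went from 3.23 ± 0.888 to 1.22 ± 0.192 FPKM, a change of -0.91 (limma adjusted p = 0.00533). The small GTPase CDC42 was the most abundant of the list, at 439 to 452 FPKM at NC24h and 349 to 367 FPKM at NC36h, a change of -0.31 that did not pass after median-ratio scaling (-0.14, limma adjusted p = 0.143). With that scaling the list held 3 genes higher and 4 lower.

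Of the postsynaptic anchors, the dystrophin-glycoprotein and filament proteins under the receptor, 8 of 13 genes were paired with a row and tested. The calls were 3 higher and 2 lower, with a median of 0.20. The intermediate filament genes NES and DES rose by 0.92 (limma adjusted p = 0.000951) and 0.91 (limma adjusted p = 0.00202) in log2(FPKM + 1). DES was the most abundant of the list, at 1693 ± 211.4 FPKM at NC24h and 3182 ± 268.1 at NC36h (SD, n = 3), and is a general marker of muscle cells. TNS1, a focal adhesion protein, fell from 570.0 ± 72.3 to 371.2 ± 55.9 FPKM, a change of -0.62 (limma adjusted p = 0.0102). SNTB2, a syntrophin, changed by -0.29 (limma adjusted p = 0.0333), a call that did not hold in 8 of 15 alternatives, including both other scalings and each fit that left out a library other than NC24h replicate 4 (adjusted p between 0.0522 and 0.11). Without NC24h replicate 5, or without any one of the NC36h libraries, 3 genes of this list passed in place of 5.

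The synaptic basal lamina list, which holds matrix proteins and the enzymes bound to them, had 11 of 14 genes paired with a row. Of these, 8 were tested, with 5 higher, 1 lower and a median of 0.40. ACHE encodes acetylcholinesterase, which ends the signal by splitting acetylcholine. It was at 9.91, 7.06 and 3.25 FPKM in the NC24h libraries and 27.7, 30.0 and 26.1 FPKM in the NC36h libraries. The groups lay far apart, again with NC24h replicate 6 lowest, and the change in log2(FPKM + 1) was 2.0 (SE 0.32, limma adjusted p = 0.00314), or 1.62 without that library. LAMA4, a laminin chain, changed by 1.49 (limma adjusted p = 0.0245). This fell to 0.96 without NC24h replicate 6 and lost its call without any one of the NC36h libraries (adjusted p between 0.0576 and 0.0780). PRSS12 encodes neurotrypsin, the protease that cleaves agrin, and was at 5.83 ± 0.607 FPKM at NC24h and 3.73 ± 0.292 at NC36h, a change of -0.53 (limma adjusted p = 0.00608). The perlecan gene HSPG2, the most abundant, changed by 0.07 and did not pass (limma adjusted p = 0.672).

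**Figure D4:**
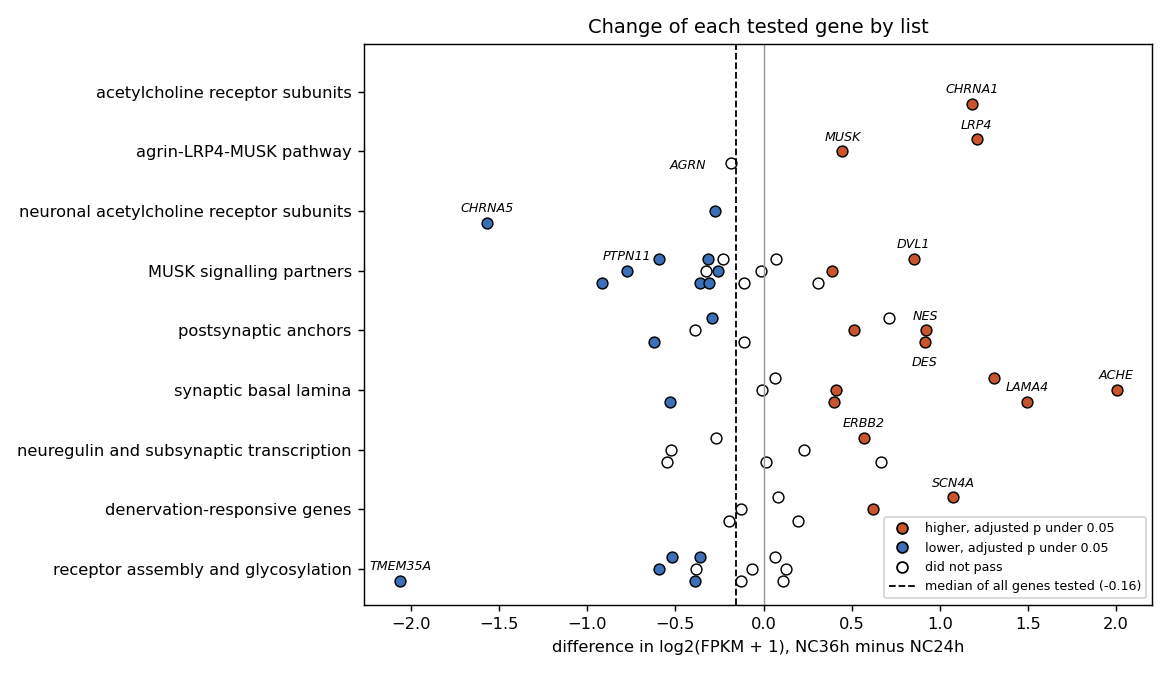
Difference in log2(FPKM + 1), NC36h minus NC24h, of each tested gene, 1 point per gene and 1 row of points per list, filled where the limma adjusted p was under 0.05; the dashed line is the median of all genes tested (-0.16). CHRNA1, LRP4 and ACHE lie to the right, CHRNA5 and TMEM35A far to the left, and most lists hold genes on both sides.

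Neuregulin signalling and the transcription factors of the nuclei below the synapse had 10 of 12 genes paired with a row and 7 tested. ERBB2, a neuregulin co-receptor, passed with a change of 0.57 (limma adjusted p = 0.00322), from 29.7 ± 3.35 to 44.3 ± 1.27 FPKM (SD, n = 3). None passed as lower in this fit, where 1 had an unadjusted p under 0.05, and 1 passed with voom. Without NC24h replicate 6, 2 genes of the list passed. PRKAR1A, the most abundant, changed by 0.01 (limma adjusted p = 0.916).

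Of the genes that respond to denervation in adult muscle, 8 of 12 were paired with a row and 6 were tested. The calls were 2 higher and 0 lower, also 0 lower at an unadjusted p of 0.05 and with voom. Without NC24h replicate 6, 2 were higher and 1 was lower, and after median-ratio scaling 3 were higher. SCN4A, the sodium channel of adult muscle, changed by 1.08 (limma adjusted p = 0.0164), from 15.4, 14.3 and 6.98 FPKM to 27.7, 27.4 and 22.1 FPKM. Its call was lost without NC36h replicate 4 (0.0557) or NC36h replicate 5 (0.0581), which leaves 1 gene called. KCNN3, a calcium-activated potassium channel, rose by 0.62 (limma adjusted p = 0.000966), from 12.4 ± 0.277 to 19.5 ± 0.625 FPKM. The cell adhesion gene NCAM1 was the most abundant, with a change of 0.20 that did not pass (limma adjusted p = 0.0547) and one of 0.37 after median-ratio scaling that did (0.0132).

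Of 12 genes for receptor assembly and glycosylation, 11 were paired with a row and all 11 were tested. The calls were 0 higher and 5 lower, with a median of -0.36. The number higher was also 0 at an unadjusted p of 0.05 and with voom, whereas after median-ratio scaling 1 gene was higher and 4 were lower. TMEM35A encodes a chaperone of neuronal acetylcholine receptors. It was at 44.7, 55.8 and 77.7 FPKM in the NC24h libraries and 11.4, 12.8 and 15.4 FPKM in the NC36h libraries. NC24h replicate 6 was the highest of the 6, the reverse of its place for CHRNA1, and the change was -2.06 (SE 0.20, limma adjusted p = 0.000952). GFPT1, the entry enzyme of the hexosamine pathway, fell by 0.59 on the log2 scale (limma adjusted p = 0.00302). The most abundant was HSPA5, the endoplasmic reticulum chaperone BiP. It changed by -0.36 (limma adjusted p = 0.0118) and did not pass after median-ratio scaling (0.0845) or without NC36h replicate 5 (0.0525).

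Markers of other cell types were summed for the same libraries. Of 12 muscle markers, 7 were paired with a row, of which 5 were higher and 2, MYF5 and MYOD1, did not pass. Their summed FPKM was 4050 to 6440 at NC24h, lowest in replicate 6, and 12400 to 13600 at NC36h. The sum was mostly ACTA1, DES, TNNT1 and MYMK, and it moved with CHRNA1, LRP4 and ACHE. MYF5 and MYOD1 were instead highest in NC24h replicate 6, at 111.8 and 386.4 FPKM. MYF6 was higher at NC36h but was not low in NC24h replicate 6, at 3.37 FPKM. The part of the muscle markers in the change of CHRNA1, LRP4 and ACHE was not tested. Of 10 motor neuron markers, CHAT, which makes acetylcholine, was listed at 0 in every library. The 2 that could be tested, TUBB3 and NEFL, were lower, and the other 8 were at most 0.165 FPKM in any library. The sum was thus nearly all TUBB3 and NEFL. The summed FPKM of the list was 11.8 to 36.5 at NC24h and 4.57 to 7.14 at NC36h, highest in NC24h replicate 6, where CHRNA1 was lowest; its part in the results was not tested. Schwann cell markers summed to at most 0.244 FPKM in any library. Of 8 fibroblast markers, 5 were paired with a row, with 1 higher and 3 lower of 4 tested. The sums were 928 to 999 FPKM at NC24h and 823 to 1030 at NC36h. They were nearly all COL1A2, whose mean fell from 692.9 to 450.5 FPKM, and COL3A1, whose mean rose from 241.0 to 443.2. The mean of DCN fell from 18.8 to 6.12 FPKM and that of LUM from 5.51 to 1.83. Endothelial markers summed to at most 1.67 and macrophage markers to at most 2.44 FPKM, with KDR and PTPRC listed at 0 in all libraries. The label's extraction text names endometrium, but the muscle markers DES, MYOD1 and ACTA1 had mean levels of at least 254.2 FPKM at both times.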

How the data were processed

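RNA-seq of 6 PSC libraries was used, 3 at NC24h and 3 at NC36h. The authors deposited FPKM values on Sscrofa11.1, with a column for each library. The paper's methods name HISAT2, StringTie and HTSeq, and the submitters' processing notes name TopHat2, Cufflinks and HTSeq. Strandedness was not given in the sources used here. Libraries with H19 siRNA were not analysed here.

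Low FPKM values were whole multiples of 1 fragment, and whole fragments were recovered for all (100%) of 19543 genes, those with 3 or more libraries above 0 (tolerance 0.01). FPKM is not a count, so limma 3.58.1 (R 4.3.3, lmFit, then eBayes with a trend, two-sided) was run on log2(FPKM + 1) of every gene whose mean FPKM reached 1. The Benjamini-Hochberg adjustment covered all of them, with a threshold of 0.05. Fold changes on this scale understate the change of low genes. Symbols were paired with 11804 of 25322 Ensembl identifiers, and 2944 rows were unannotated. A listed gene that was not paired may still have a row without a symbol. Positions are RefSeq's.

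The genes and lists were chosen with earlier results of these data known. Named are the 10 genes, in each other list up to 2 rises and 2 falls past the threshold whose groups did not overlap plus the most abundant gene, and the 3 genes nearest to CHRNA1. As alternatives, the libraries were rescaled by median ratios or by quantiles, the pseudocount was set to 0.1 or 0.01, the FPKM minimum was dropped or raised to 5, the trend was left out of eBayes, the replicate number was added as a block, each library was left out in turn, and voom was run on the recovered fragments.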

Additional observations from a re-analysis of the deposited data

How the results depend on the processing

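CHRNA1 (15 alternatives, log2 change 1.0 to 1.36, limma adjusted p 0.000624 to 0.0139), LRP4 (14, 1.08 to 1.70, 0.000912 to 0.0116) and MUSK (15, 0.43 to 0.62, 0.000941 to 0.0141) kept their direction and passed in every alternative that tested them. AGRN did not pass in any of 14 (-0.24 to -0.01, 0.0821 to 0.927). Each within-library ratio kept its direction when any library was left out, which had to follow because the groups did not overlap. The share of receptor subunits and the ratio of CHRNG to CHRNE were planned and not run, since CHRNG was not paired with a row. The number of genes called was 7156, 4881 to 7268 with 1 library left out, 6488 after median-ratio scaling and 6581 after quantile normalization.

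The neuronal subunit list had 1 call, in place of 2, under either other scaling, without the FPKM minimum and with the replicate block. Leaving out a library gave 1 to 2 calls. With an FPKM minimum of 5 only 1 gene of the list was tested, and it passed. The anchor list had 3 calls with no filter and 3 to 6 leaving out a library. The neuregulin list had 2 calls with no filter, eBayes without trend and voom, and 1 to 2 leaving out a library, and the denervation list 1 to 3. PRKAR1A, which never passed, changed sign after quantile normalization (-0.042) and without NC24h replicate 4 (-0.002) or NC36h replicate 4 (-0.052), with a range of -0.052 to 0.075 leaving out a library. HSPG2 changed sign without NC36h replicate 6, with a range of -0.039 to 0.19. The causes were not tested.

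Libraries of the 2 groups with the same number correlated at 0.146, -0.016 and 0.178 (numbers 4, 5 and 6) in their deviations from the group means, and number 5 did not correlate best with its own number, and the libraries were treated as unpaired. With the replicate block 7034 genes were called, and 3 of the 4 tested genes of the receptor and the pathway, as before, and CHRNA3 lost its call (adjusted p = 0.0743). With 3 libraries per group, 1 fragment of CHRNE was worth up to 0.0410 FPKM, which limits what its row can show.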

Other observations

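The nearest genes with a symbol on either side of the 5 genes, 10 neighbours in all, gave a further set of values, chosen after the data were seen. Of the 8 that could be tested, 5 were lower and 0 higher at NC36h with limma, with 0 higher at an unadjusted p of 0.05, with voom, after median-ratio scaling and after quantile normalization. Over all genes tested 34.4% were lower and 16.5% higher, and the neighbours were not tested as a group. GPR155, 210980 bases before CHRNA1 and encoding a cholesterol-sensing protein of the lysosome, went from 44.7 ± 5.95 to 13.5 ± 2.18 FPKM (SD, n = 3; limma log2 change -1.65, adjusted p = 0.000715). CKAP5, a microtubule polymerase gene 7846 bases after LRP4, changed by -0.42 (limma adjusted p = 0.00999), and SVEP1, a matrix protein gene 78351 bases before MUSK, by -0.51 (limma adjusted p = 0.00289). PLD2, 57320 bases after CHRNE, changed by -1.02, and PTGR1, 614733 bases after MUSK, by -0.76.

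NC24h replicate 6 also stood apart for genes of the lists that did not pass the test, which were picked after their values were seen. ERBB3, the neuregulin receptor that partners ERBB2, was at 98.6, 83.6 and 35.7 FPKM in NC24h replicates 4, 5 and 6 and at 101.2 to 112.1 FPKM at NC36h. DTNA, the alpha-dystrobrevin gene, was at 78.1, 67.6 and 29.1 FPKM at NC24h and 83.5 to 91.4 at NC36h. The ETS factor gene ETV4 went the other way, with 3.08, 4.60 and 12.7 FPKM at NC24h and 3.43 to 4.08 at NC36h.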
